A study of Homo sapiens with 8 samples.

Results

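The sgRNAs directed at lncRNA promoters on chromosome 20 were examined in a pooled CRISPRi growth screen of SW620 cells, an established human colorectal adenocarcinoma line that carried a dCas9/KRAB fusion in every sample. A guide belonged to the set if its row named a lncRNA target and the chromosome given for that target was chr20. This held for 121 of 6862 listed sgRNAs (1.76%), among 6389 targeting and 473 non-targeting ones. They address 16 of 957 target IDs, 12 from MiTranscriptome, a catalogue of assembled human transcripts, and 4 from Ensembl. By the position of the transcription start site (TSS), 6 targets with 50 sgRNAs lie on the short arm (up to file position 22559599) and 10 targets with 71 sgRNAs on the long arm (from 33442385 on). The screen has 4 libraries before screening (day 0) and 4 after screening, titled day 17 and labelled as 18 days of culture. The cells came from 4 independent infections with the viral library at low multiplicity and were selected with puromycin. All 8 libraries carry the same sgRNA pool, and no untransduced cells or cells without dCas9/KRAB are among them.

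In CRISPRi, an sgRNA brings a Cas9 protein that cannot cut DNA to a promoter, where the fused KRAB domain lowers transcription. When the silenced transcript is needed for growth, cells with that sgRNA become rarer in the pool, and sequencing the sgRNA from genomic DNA shows the loss. The long arm of chromosome 20 is often gained in colorectal cancer, and the chromosome holds several genes of endoderm and gut identity, among them FOXA2 and HNF4A. Extra copies of a region can make cells sensitive to a Cas9 that cuts, a response that a Cas9 without cutting activity does not call on. The copy number of chromosome 20 in these cells was not analysed here.

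Some of the sgRNAs described singly below were chosen after their values were seen. The 12 listed here followed a rule. They were those with an unadjusted p under 0.05 in the comparison of counts after with counts before screening, together with the 5 lowest and the 5 highest fold changes among well-counted sgRNAs, those with 100 counts or more in each of the 4 libraries of day 0. They are shown 5′ to 3′, with the 10 bases that lie next to the PAM in capitals, since pairing of these bases matters most for Cas9 binding.
YLQ3472 of T222016, long arm: cggatgctggGAGACTCGGG
YLQ546 of T213103, short arm: ggactgtgagCTGATCCCGG
YLQ2326 of ENST00000609152.1, long arm: cagatatgaaAAAATCATAA
YLQ1397 of T215039, short arm: atattcatttTTAAACTAGC
YLQ1400 of T215039, short arm: aagtttacccTCCTGGAATT
YLQ2494 of ENST00000606362.1, long arm: ggccccgcctTCCGCCTCTT
YLQ1403 of T215039, short arm: aaccggcgcgCGGAAAGCGT
YLQ1398 of T215039, short arm: taaaattcagTTAAGTACAA
YLQ1381 of T215042, short arm: tttaaggtgcAAGTGGCATC
YLQ1375 of ENST00000609300.1, short arm: ttgtcacagcTTCAGCTCTT
YLQ2639 of T219619, long arm: atggcatttaTGTGGAGTCA
YLQ1978 of T216636, long arm: tggtgagattGAAGCCCTCC

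The files give targets by ID only, so the sgRNA sequences were searched on both strands in 35116 promoter windows of human RefSeq genes (GRCh38.p14), each from 250 bases before to 50 bases after a gene's start. Of the 121 sgRNAs, 19 had an exact match, in windows of 4 genes, and each of the 19 matches was followed by an NGG PAM. The windows belong to BTBD3 (7 sgRNAs, all of T213811), LINC00261 (5 of T215039 and 1 of ENST00000564492.1), HNF4A-AS1 (4 of T218309) and TP53RK (2 of ENST00000606362.1). The other 102 sgRNAs had no match in these windows. LINC00261 is a lncRNA gene whose next neighbor in the RefSeq table is FOXA2, a transcription factor gene of endoderm. HNF4A-AS1 overlaps HNF4A, which encodes a nuclear receptor of liver and gut epithelium. TP53RK encodes a kinase of the KEOPS complex, which modifies tRNAs, and it overlaps the divergent transcript TP53RK-DT. BTBD3 encodes a BTB domain protein and overlaps BTBD3-AS1. At the 4 genes, the GRCh38 start of a match lay 19353 to 1371362 bases above the position in the files, so the file positions are not those of GRCh38; they are given below as file positions and were not converted. In all 19 matches, the sgRNA strand in the files was the opposite of the strand that reads as the sgRNA, and the file position was the left end of the match with a shift that was constant at each gene.

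Stretches of 3 of these windows show how closely the sgRNAs tile a start region. Each reads in the direction of its gene, with complete sgRNA sites of either strand in capitals. The first runs from base -250 to base -181 before the start of TP53RK (chr20:46689625-46689694, minus strand) and holds 2 adjoining sites, those of YLQ2495 and YLQ2494. The second and the third run from base -250 to base -1 of LINC00261 (chr20:22578643-22578892, minus strand) and of BTBD3 (chr20:11917643-11917892, plus strand) and hold 5 complete sites each.
TP53RK: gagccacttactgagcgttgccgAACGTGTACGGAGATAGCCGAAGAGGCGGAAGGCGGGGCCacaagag
LINC00261: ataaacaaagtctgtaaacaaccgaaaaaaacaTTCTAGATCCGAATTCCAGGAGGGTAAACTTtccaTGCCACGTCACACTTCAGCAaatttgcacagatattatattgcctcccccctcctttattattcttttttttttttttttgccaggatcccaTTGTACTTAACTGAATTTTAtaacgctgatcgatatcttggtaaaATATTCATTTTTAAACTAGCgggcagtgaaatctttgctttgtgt
BTBD3: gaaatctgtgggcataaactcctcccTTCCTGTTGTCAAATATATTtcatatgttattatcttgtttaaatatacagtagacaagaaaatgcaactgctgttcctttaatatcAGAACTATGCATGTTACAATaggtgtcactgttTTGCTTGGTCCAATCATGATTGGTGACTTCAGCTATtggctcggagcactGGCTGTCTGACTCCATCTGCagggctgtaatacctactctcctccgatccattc

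No sgRNA and no target on chromosome 20 passed the edgeR test for depletion or enrichment after screening. Of the 121 sgRNAs, 118 had enough counts to be tested, and at an adjusted p under 0.05 from edgeR none was lower, where the share over all 6126 tested targeting sgRNAs was 0.751%, and none was higher, where it was 0.0816%. The smallest adjusted p was 0.222. At an unadjusted p under 0.05, 1 of the 118 sgRNAs was lower (0.847%, against 3.17% of all tested targeting sgRNAs) and 4 were higher (3.39%, against 2.81%). Taken in both directions, these 5 sgRNAs became 3 when scaled to total counts or to the non-targeting sgRNAs. They became 2 without before screening replicate 3, 3 without after screening replicate 1, and 8 without after screening replicate 3 or 4. The shares over all tested targeting sgRNAs were not tallied in these settings. The changes in number therefore cannot be set against those of the whole pool. DESeq2 called 1 of the 118 depleted (0.847%, against 1.21% of all tested targeting sgRNAs). It called none enriched, and the DESeq2 share of enriched sgRNAs over all tested targeting ones was not tallied. The total counts were 3996581, 3999875, 3471191 and 3842728 in replicates 1 to 4 before screening and 3853506, 3465139, 3446361 and 3417248 after it, and the chromosome 20 sgRNAs had on average 527 to 626 counts per library. Counts are PCR reads, and it is not stated if molecular identifiers were used in counting. P values measure the spread between libraries. It is not stated if libraries with the same number come from one infection.

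The share of the pool held by the whole set did not change beyond the spread between libraries. Chromosome 20 sgRNAs held 1.884%, 1.895%, 1.86% and 1.918% of all counts in replicates 1 to 4 before screening and 1.923%, 1.917%, 1.932% and 1.864% after it. The ranges of the groups overlap, and the lowest library after screening, replicate 4, lay just above the lowest before screening, replicate 3. The mean went from 1.889% ± 0.024 to 1.909% ± 0.03 (SD, n = 4 each), a difference of 0.02 percentage points (two-sided exact permutation test, p = 0.314). With 4 libraries a group, such a test cannot give a p below 0.0286. Relative to the non-targeting sgRNAs, which cannot silence a promoter, the chromosome 20 counts were 24.5% ± 0.326 before and 24.7% ± 0.389 after screening (SD, n = 4 each; exact permutation test, two-sided, p = 0.4).

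Neither arm changed its share beyond the spread between libraries. The short arm held 0.696% ± 0.017 of the counts before and 0.706% ± 0.019 after screening, and the long arm 1.193% ± 0.013 and 1.203% ± 0.02 (SD, n = 4 each; exact permutation tests, two-sided, p = 0.543 and p = 0.429). The log2 ratio of long-arm to short-arm counts was 0.819, 0.75, 0.786 and 0.752 in replicates 1 to 4 before screening and 0.794, 0.8, 0.713 and 0.773 after it. Every library after screening except replicate 3 lay inside the range of the libraries before screening. The means were 0.777 ± 0.033 and 0.77 ± 0.04 (SD, n = 4 each), a difference of -0.007. In the two-sided exact permutation test, 58 of 70 arrangements of the libraries gave a difference at least as large. The sign turned without before screening replicate 1 (0.007) and without after screening replicate 3 (0.012). Of 48 tested short-arm sgRNAs 32 had a positive and 16 a negative log2 fold change, and of 70 long-arm sgRNAs 41 and 29. The medians were 0.04 and 0.03.

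Over both arms, 73 of the 118 tested sgRNAs (61.9%) had a positive log2 fold change, against 52.8% of the 6008 tested targeting sgRNAs on other chromosomes, with medians of 0.03 and 0.01. Scaled to total counts or to the non-targeting sgRNAs, 58.5% of the chromosome 20 sgRNAs were positive, against 49.7% and 49.3% of the others. These counts are a description, as sgRNAs share targets and libraries and are not replicates. The log2 fold changes ran from -0.75 to 0.69 with an SD of 0.23. Among well-counted sgRNAs, the SD was 0.16 over the 89 on chromosome 20, 0.20 over the 4412 on other chromosomes and 0.14 over the 347 non-targeting ones, and the lowest values were -0.75, -2.65 and -0.42. For the 29 tested chromosome 20 sgRNAs with fewer counts, the SD was 0.37. It was 0.52 over 1596 such sgRNAs on other chromosomes and 0.56 over 114 non-targeting ones. Changes beyond 0.58 in either direction were found for 3 of these 29 sgRNAs (10.3%, against 17.7% on other chromosomes). Among the 89 well-counted ones there was 1 (1.12%, against 1.36%).

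Summed over its sgRNAs, each of the 16 targets stayed close to its starting level. The log2 fold changes of the summed counts lay between -0.11 and 0.1, with 10 targets above and 6 below 0, and their median was 0.02, against 0 over all 953 tested targets. None passed the test (smallest adjusted p = 0.741 from edgeR; depleted targets made up 0.839% and enriched ones 0% of all tested targets), and none had an unadjusted p under 0.05, as 7.24% of all tested targets did. By DESeq2, none was called either, and 1 had an unadjusted p under 0.05, as 1 did by edgeR without before screening replicate 1. The 95% intervals of the 16 targets reached from a fold of 0.826 at the lowest to 1.16 at the highest, so that at this depth a loss of the summed abundance of a target to under 0.826 of its start lay outside every interval. A sum follows its most abundant sgRNAs, which made up 19.7% to 61.4% of a target's counts before screening, and an effect of a rare sgRNA can be hidden in it. Without the most abundant sgRNA of each target, the log2 fold changes ran from -0.16 for T222016 to 0.19 for T219619, and no target passed the test. In that setting 2 targets had an unadjusted p under 0.05 from edgeR, ENST00000609300.1 (log2 fold change 0.10, adjusted p = 0.398) and T219619 (adjusted p = 0.504). The share of all tested targets under 0.05 was tallied for the main fit only, not for this setting, DESeq2 or single libraries left out.

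On the short arm, 4 targets have TSS within 14694 bases of each other (file positions 22544905 to 22559599, minus strand): ENST00000609300.1, T215042, ENST00000564492.1 and T215039. Only ENST00000564492.1 and T215039 have sgRNAs in the window of LINC00261, the neighbor of FOXA2, and the others were joined by TSS distance. Of the 34 sgRNAs of the 4 targets, 32 were tested, 21 with a positive and 11 with a negative log2 fold change. The median was 0.11. ENST00000609300.1 was the one target on the chromosome whose groups did not overlap. Its sgRNAs summed to 1865, 1864, 1807 and 1846 RPM (counts scaled to 1000000 per library) in replicates 1 to 4 before screening and to 1887, 1878, 2024 and 1899 RPM after it. All 4 libraries after screening were higher, with replicate 3 above the other 3. The log2 fold change was 0.06 (95% interval -0.01 to 0.13; adjusted p = 0.741 from edgeR). Of all tested targets, 1.99% had groups that did not overlap and were higher after screening. Within this target YLQ1375, 139 bp downstream of the TSS, had 155, 139.5, 132 and 140 RPM before and 182, 193, 147 and 145 RPM after screening. After screening, replicates 1 and 2 lay above all libraries of day 0, and replicates 3 and 4 lay inside the range of day 0 (log2 fold change 0.25, 95% interval 0.01 to 0.49, adjusted p = 0.773 from edgeR). YLQ1373, the most abundant sgRNA of the target with 1949 to 2347 counts before screening, had a log2 fold change of -0.03 (95% interval -0.16 to 0.10).

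T215039, the target with 5 sgRNAs just before the start of LINC00261, summed to 594 ± 38.1 RPM on day 0 and to 589 ± 35.2 RPM at the end (SD over 4 libraries each). Its log2 fold change was -0.01 (95% interval -0.14 to 0.11), and 4 of the 12 sgRNAs shown above belong to it, 2 lower and 2 higher. YLQ1400 had 99.8, 97.5, 86.1 and 123 RPM before and 57.4, 113, 66.7 and 97.2 RPM after screening. After screening, replicates 1 and 3 lay below all libraries of day 0, and replicates 2 and 4 lay inside the range of day 0 (log2 fold change -0.27, 95% interval -0.62 to 0.08, adjusted p = 0.911 from edgeR). YLQ1401, whose site starts 11 bases away on the other strand and overlaps that of YLQ1400, had a log2 fold change of 0.17 (95% interval -0.28 to 0.62). YLQ1397 and YLQ1398, both with 4 G or C among 20 bases, had log2 fold changes of -0.28 and 0.23 (95% intervals -0.83 to 0.26 and -0.34 to 0.80). YLQ1403, 49 bp downstream of the TSS, had 0.20 (-0.14 to 0.54). All 6 sgRNAs in the LINC00261 window together had 3 positive and 3 negative values.

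T215042 and ENST00000564492.1, from the same locus, had log2 fold changes of 0.06 (95% interval -0.06 to 0.19) and 0.04 (-0.10 to 0.17) in their summed counts. In T215042, YLQ1381 had 32.3, 39.3, 34.3 and 38.5 RPM before and 29.6, 39.8, 44.1 and 55.9 RPM after screening, groups that overlap (log2 fold change 0.24, 95% interval -0.23 to 0.71). The same target holds the highest log2 fold change of the chromosome, 0.69 for YLQ1383, which rests on 53, 29, 18 and 27 counts before and 41, 32, 18 and 94 counts after screening. Replicate 4 after screening stood alone there, and the 95% interval was -0.34 to 1.71.

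Elsewhere on the short arm, T213811 had 9 tested sgRNAs, 7 of them in a promoter window of BTBD3. The log2 fold change of its summed counts was -0.02 (95% interval -0.12 to 0.08), and its sgRNAs in the BTBD3 window ran from -0.29 for YLQ994 to 0.35 for YLQ990, which had 29 to 57 counts before screening. YLQ996, closest to the BTBD3 start and the most abundant sgRNA of the target, had 0.04 (95% interval -0.15 to 0.22). T213103, at file position 4163377, had 7 sgRNAs, all tested, with a sum of 2191 ± 55 RPM on day 0 and 2199 ± 32.6 RPM at the end (SD over 4 libraries each). One of them, YLQ546, had 57.5, 45.3, 70.6 and 79.9 RPM before and 49.6, 29.7, 76.9 and 32.5 RPM after screening. Replicates 2 and 4 were below all libraries before screening, while replicates 1 and 3 were not (log2 fold change -0.41, 95% interval -0.88 to 0.06, adjusted p = 0.871 from edgeR). Its value depended on single libraries, with -0.75 without after screening replicate 3 (unadjusted p = 0.00259, adjusted p = 0.209 from edgeR) and -0.25 without after screening replicate 2. The other 6 sgRNAs of T213103 had log2 fold changes from 0.00 to 0.20.

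On the long arm, 3 targets on the minus strand have TSS between file positions 43013310 and 43061699: ENST00000609152.1, T218309 and T218318. Only T218309 has sgRNAs that match windows of HNF4A-AS1, and the others were joined to it by TSS distance. All 24 sgRNAs were tested, 16 with a positive and 8 with a negative log2 fold change (median 0.04). In summed counts the log2 fold changes were 0.05 (95% interval -0.04 to 0.14), 0.03 (-0.06 to 0.12) and -0.02 (-0.10 to 0.07). The 4 sgRNAs of T218309 that match promoter windows of HNF4A-AS1 had values from -0.38 to 0.19 and intervals as low as -1.39. YLQ2340, which has no match there, held 58.7% of that target's counts. YLQ2340 had 709.6, 755, 743 and 702 RPM before and 673, 758, 821 and 745 RPM after screening, with replicate 1 below and replicate 3 above the other libraries (log2 fold change 0.05, 95% interval -0.06 to 0.17). The lowest well-counted sgRNA here was YLQ2326 of ENST00000609152.1. It had 28.5, 31, 38.6 and 38.3 RPM before and 23.1, 25.7, 31.3 and 23.7 RPM after screening, and only replicate 3 reached the range before screening (log2 fold change -0.38, 95% interval -0.91 to 0.15, adjusted p = 0.92 from edgeR). YLQ2358 of T218318 had -0.70, from 8 to 26 counts before screening, with an interval of -2.08 to 0.68, while YLQ2357, whose site starts 13 bases away on the same strand, had 0.00 (-0.28 to 0.27).

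The sgRNAs with the narrowest intervals on the chromosome target ENST00000606362.1 (plus strand, TSS at file position 45318297), next to TP53RK. YLQ2494, the most abundant chromosome 20 sgRNA, and YLQ2495 lie 27 and 7 bp upstream of the target's TSS, in the TP53RK sequence shown above. YLQ2494 had 1121, 1075, 1071 and 1089.9 RPM in replicates 1 to 4 before screening and 1124, 1196, 1132 and 1157 RPM after it. Every library after screening was above every library before it, by a narrow margin in replicate 1. The log2 fold change was 0.09 (95% interval 0.00 to 0.18; adjusted p = 0.775 from edgeR). YLQ2495 had 812, 757, 789 and 818 RPM before and 813, 792, 802 and 785 RPM after screening, with groups that overlap throughout (log2 fold change 0.02, 95% interval -0.08 to 0.12). A log2 fold change below -0.08 lay outside both intervals. The summed counts of the 8 sgRNAs had a log2 fold change of 0.00 (95% interval -0.05 to 0.06), the narrowest interval of the 16 targets, with 4 sgRNAs positive and 4 negative. The level of the lncRNA or of TP53RK in these cells was not measured in the screen.

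The lowest log2 fold change on chromosome 20 was that of YLQ3472, 141 bp downstream of the TSS of T222016. It had 59.3, 42.3, 50.7 and 45.5 RPM in replicates 1 to 4 before screening (237, 169, 176 and 175 counts) and 37.4, 27.1, 23.5 and 28.7 RPM after it (144, 94, 81 and 98 counts). All 4 libraries after screening were below all 4 before it. The log2 fold change was -0.75 (95% interval -1.22 to -0.28, unadjusted p = 0.00263, adjusted p = 0.222 from edgeR). It was the sgRNA that DESeq2 called (adjusted p = 0.0259). The study's volcano plot draws thresholds at an unadjusted p of 0.05 and a log2 fold change of 0.58 in either direction. They were applied here to the p and fold change from edgeR, whereas the plot's fold change is a ratio of normalized reads. By this rule YLQ3472 was the only sgRNA on the chromosome past them, where 1.57% of all tested targeting sgRNAs were lower and 0.588% higher. Of 461 tested non-targeting sgRNAs, 1.52% were lower and 1.08% higher past the same thresholds. The adjusted p from edgeR lay between 0.0839 and 0.839 when 1 library was left out, the former without after screening replicate 1 and the latter without before screening replicate 1.

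The other sgRNAs at the same start site had log2 fold changes from -0.31 to 0.35, and their difference from YLQ3472 was not tested. T222016 and T222017 share a TSS at file position 61359698 on the minus strand, and their 9 sgRNAs lie 25 to 296 bp downstream of it. YLQ3473, whose site starts 17 bases from that of YLQ3472 on the other strand and overlaps it, had 34.5, 41.3, 45.2 and 25.8 RPM before and 38.1, 29.7, 51.6 and 47.7 RPM after screening (log2 fold change 0.20, 95% interval -0.29 to 0.69). Closer to the TSS, YLQ3477 and YLQ3475 of T222017 had 0.07 (-0.12 to 0.26) and 0.08 (-0.08 to 0.24). In summed counts T222016 had means of 283 ± 12.6 and 263 ± 16.1 RPM and T222017 of 616 ± 33.9 and 643 ± 34.1 RPM before and after (SD over 4 libraries each). Their log2 fold changes were -0.11 (95% interval -0.28 to 0.06) and 0.06 (-0.05 to 0.18). T221990, with its TSS 37626 bases away, had -0.02 (-0.13 to 0.09).

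Across the chromosome, 18 pairs of sgRNAs of the same target had sites that start fewer than 20 bases apart. The values of YLQ3472 and YLQ3473 lay farthest apart. YLQ1978 and YLQ1979 of T216636, 18 bases apart on opposite strands, had 0.50 and -0.20. YLQ1978 had 37.5, 29.5, 26.2 and 34.1 RPM before and 45.7, 35.8, 49.9 and 47.4 RPM after screening, where replicate 2 fell inside the range before screening (95% interval 0.03 to 0.97, adjusted p = 0.766 from edgeR). Its smallest count before screening was 91. Differences within pairs were not tested.

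Groups that did not overlap in RPM were seen for 1 lower sgRNA, YLQ3472 (0.847% of 118, against 2.74% of all tested targeting sgRNAs). There were 3 higher ones (2.54%, against 1.67%): YLQ2494, YLQ2639 and YLQ3301. These 3 were among the 70 tested on the long arm (4.29%), against 0 of 48 on the short arm, a difference that was not tested. Of 461 tested non-targeting sgRNAs, 13 (2.82%) were lower and 13 (2.82%) higher by the same rule. YLQ2639, 176 bp upstream of the TSS of T219619, had 70.8, 77.3, 82.4 and 76 RPM before and 83.3, 126, 95.2 and 93.6 RPM after screening. Replicate 2 after screening was the highest, and the lowest, replicate 1, was just above the highest before screening (log2 fold change 0.39, 95% interval 0.07 to 0.70, adjusted p = 0.626 from edgeR). YLQ3301 of T220769 had 233, 268, 251 and 248 RPM before and 272, 304, 269 and 271 RPM after screening (log2 fold change 0.17, 95% interval -0.01 to 0.35, adjusted p = 0.839 from edgeR). T219619 and T220769 had log2 fold changes of 0.10 (95% interval -0.02 to 0.22) and 0.03 (-0.03 to 0.09) in their summed counts, and T216636 had -0.05 (-0.14 to 0.05).

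The sgRNAs lay between 228 bp upstream and 436 bp downstream of their TSS (median 117 bp downstream) and held 4 to 20 G or C among 20 bases. The 26 sgRNAs upstream of the TSS had a median log2 fold change of 0.05, the 29 from 0 to 100 bp 0.02, the 57 tested beyond 100 and up to 300 bp 0.02 and the 6 farther downstream -0.01. The 34 tested sgRNAs with 8 or fewer G or C had a median of 0.05, the 62 with 9 to 12 had 0.03 and the 22 with 13 or more had -0.01. The SD within these bins was 0.15 to 0.39, wider than the distances between the medians. How precisely an sgRNA was measured followed its counts. The 95% interval stayed within 1 of 0 on the log2 scale for 88 of the 89 well-counted sgRNAs, YLQ3472 being the exception. It did so for 11 of the 29 tested ones with fewer counts. On other chromosomes this held for 4338 of 4412 and for 619 of 1596. The lower bound alone excluded a halving for 19 of the 29, and for 1018 of the 1596 on other chromosomes. For the rest of the 29, a halving lay inside the interval at this depth.

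The 3 sgRNAs without a test were YLQ1376 of ENST00000609300.1, YLQ1382 of T215042 and YLQ3462 of T221990. YLQ1376 had 6, 8, 0 and 11 counts before and 0, 0, 59 and 5 counts after screening. YLQ1382 had 5 counts in before screening replicate 3 and 0 in the other 7 libraries, and YLQ3462 had 2 to 17 counts before and 1 to 22 after screening. None of the 3 can show a change at this depth.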

How the data were processed

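sgRNA inserts were recovered from genomic DNA by PCR and sequenced, and the authors' deposited values are unnormalized read counts for each sgRNA, kept separate by library. FastQC 0.11.2, Bowtie and hg38 are listed, without roles, in the submitters' processing notes. How reads were assigned to sgRNAs is not given in the sources used here.

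Counts of all sgRNAs were filtered with filterByExpr, scaled by TMM (factors 0.993 to 1.01) and compared by the quasi-likelihood F test (glmQLFit, robust; glmQLFTest) of edgeR 4.0.16 (R 4.3.3), after against before screening, with Benjamini-Hochberg adjustment over all 6587 tested sgRNAs. The same fit was run on counts summed per target, with non-targeting sgRNAs as single rows (1414 rows tested). Intervals (95%) used a standard error derived from each fold change and its F statistic. Shares and ratios were compared by exact permutation of the 8 libraries (SciPy 1.17.1). RPM is the count scaled to a library total of 1000000. The steps were tested on simulated data. Intervals and depth limits cover counting and library error only.

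The guides, the tests and the rule for named sgRNAs were chosen with earlier results of these data known. Every chromosome 20 target is named. By the rule, sgRNAs are named at an unadjusted p under 0.05 or among the 5 lowest and 5 highest well-counted fold changes. Others were chosen after their values were seen, as neighbors, promoter matches, most abundant sgRNAs, groups without overlap or examples of low counts. Targets with TSS within 100 kb of the next were described together. Alternatives were other scalings, DESeq2 1.42.0, other count filters, the replicate number as a block, single libraries left out, the two-tailed test that the methods name, run on log2(RPM + 1), the plot's thresholds, and sums without the most abundant sgRNAs.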

Additional observations from a re-analysis of the deposited data

Results flagged for a closer look

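Of 64 groups of 4 libraries examined (the 12 named sgRNAs, the 16 target sums and the shares and arm ratio, before and after screening), 2 held a library that stood far from the other 3; chance flags about 1 in 20 such groups. The summed sgRNAs of ENST00000609300.1 had 2024 RPM in after screening replicate 3, against 1878 to 1899 RPM in the other 3 libraries after screening. The summed sgRNAs of T215039 had 536 RPM in after screening replicate 1, against 603 to 608 RPM in the others. Both targets belong to the short-arm locus that includes the LINC00261 window, and the flagged libraries differ.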

How the results depend on the processing

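The count of chromosome 20 sgRNAs called was 0 by edgeR under every scaling, filter and block tried and without any single library. It was 1 with DESeq2 and 1 when the thresholds of the study's plot were applied to edgeR values, YLQ3472 each time. The count of targets called was 0 under every alternative, DESeq2 included. The 12 named sgRNAs kept their direction in all 179 values under the alternatives, and their side of the threshold in 178, but the sizes of 7 moved by over 1.5 times without single libraries. These log2 fold changes ran from -0.75 to -0.25 for YLQ546, -0.45 to -0.13 for YLQ1400, -0.38 to -0.15 for YLQ1397, 0.01 to 0.49 for YLQ1398, 0.06 to 0.29 for YLQ1403, 0.08 to 0.38 for YLQ1381 and 0.25 to 0.47 for YLQ2639. In the two-tailed test of the methods, YLQ2326 had an unadjusted p of 0.0384 (adjusted over all sgRNAs 0.69; edgeR 0.92). The difference in share of counts was 0.01 to 0.035 percentage points without single libraries (short arm 0.001 to 0.016, long arm 0.005 to 0.019), and the difference in the log2 ratio of the arms was -0.017 to 0.012. Of 16 targets, 7 changed sign in 13 of 256 values, none called. Without single libraries the log2 fold change ran from -0.01 to 0.02 for ENST00000606362.1 and T213103, -0.07 to 0.04 for T213811, -0.04 to 0.03 for T215039, -0.01 to 0.07 for T218309, -0.04 to 0.01 for T218318 and -0.08 to 0.04 for T221990. Without the most abundant sgRNA of each target it was -0.05 for ENST00000606362.1 and 0.03 for T215039, and with no change of sign it was 0.19 in place of 0.10 for T219619, 0.10 in place of 0.06 for ENST00000609300.1 and 0.14 in place of 0.06 for T215042. The cause was not tested. With the replicate number as a block, no call at the adjusted threshold changed, and the adjusted p of YLQ3472 was 0.136. The sgRNAs with an unadjusted p under 0.05 from edgeR were then 3 lower (YLQ3472, YLQ546 and YLQ1400) and 3 higher (YLQ2639, YLQ1978 and YLQ1375) in place of 1 and 4. The share over all tested targeting sgRNAs with the block was not tallied, so this shift cannot be set against that of the whole pool. YLQ546 had -0.47 (adjusted p = 0.519), YLQ1400 -0.31 (adjusted p = 0.707), and YLQ2494 left the list (0.09, adjusted p = 0.736). Same-numbered libraries correlated by 0.046 to 0.109 in their deviations from the group means over 6587 sgRNAs, each library best with its own number, which is a hint from the data and does not make the numbers pairs by design.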
